A study of Homo sapiens with 12 samples.

Results

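The J proteins (symbols starting with DNAJ), the subunits of the chaperonin CCT and the BAG proteins were followed across 4 groups of A375, an established human melanoma cell line. Members were the rows of the expression table whose symbol starts with DNAJ, with CCT and a digit, or is BAG and a digit, with 3 antisense RNAs left out. They came to 58 of 4918 genes, of which 42 were DNAJ, 10 CCT and 6 BAG genes. The table used here runs from A1BG to FAM46B, so genes later in the alphabet, the HSP70 family and TCP1 among them, were not analysed here.

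A375 cells were left untreated (control), or were treated for 24 h with SB-3CT, a small-molecule inhibitor of the matrix metalloproteinases MMP2 and MMP9, with interferon gamma (IFNγ), or with the combination, and each group has 3 RNA-seq samples. The labels give no concentration and do not say whether the 3 samples of a group came from separate cultures, so the p-values below measure the spread between these samples, which may be technical. Expression is given as FPKM, that is sequenced fragments corrected for transcript length and for library size. Differences are given as log2(FPKM + 1), where the changes of genes near or under 1 FPKM appear smaller than they are, and a gene was called at a Benjamini-Hochberg adjusted p under 0.05 over all 4918 genes. With 3 samples in each group the smallest p an exact permutation test allows is 0.1, so calls come from limma, which shares an estimate of the spread across genes.

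J proteins bring unfolded or newly made proteins to chaperones of the HSP70 family and stimulate their ATPase through the J domain, and different members work in the cytosol, the endoplasmic reticulum, mitochondria, on ribosomes or on vesicles. BAG proteins bind the ATPase domain of HSP70 through the BAG domain, promote the release of nucleotide, and thereby set when a client is let go. CCT, also called TRiC, is a double ring of related subunits that closes around a client, with actin and tubulin as its best-known substrates. Melanoma cells, like other dividing cells, express these genes widely, and heat shock or a load of unfolded protein in the endoplasmic reticulum is known to induce some of them.

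Of the 58 members, 51 had a promoter window in the RefSeq table for build GRCh38.p14 (250 bases before to 50 after the start of the gene), and BAG4, CCT6A, CCT6P1, CCT6P3, DNAJC1, DNAJC22 and DNAJC24 did not. These windows were searched on both strands for elements of the heat shock and unfolded protein responses, which are known to induce chaperones. The heat shock element was searched as GAA, TTC and GAA with 2 bases of any kind between them. The unfolded protein response element was searched as TGACGTGG and the related stress element of the endoplasmic reticulum as CCAAT and CCACG with 9 bases of any kind between them. The reverse complement of TGACGTGG holds CCACG, so these 2 can overlap in part. The heat shock element was in the windows of DNAJA1 and DNAJB6, against 0.49% of all 35116 windows. TGACGTGG was in the window of DNAJC10, on the minus strand (0.729% of all windows), and the stress element was in 0 member windows and 0.0769% of all. A match is a description of letters and not a site at which a factor was shown to bind, and no match says only that these letters are not in the window. The stretches around these 3 matches are shown because their genes are among those described below, with the motif in capitals (for DNAJC10 its reverse complement).
DNAJA1 (chr9:33025236-33025288, plus strand): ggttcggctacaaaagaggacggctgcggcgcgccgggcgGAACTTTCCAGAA
DNAJB6 (chr7:157336833-157336925, plus strand): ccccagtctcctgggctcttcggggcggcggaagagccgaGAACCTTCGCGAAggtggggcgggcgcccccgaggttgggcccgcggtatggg
DNAJC10 (chr2:182716092-182716179, plus strand): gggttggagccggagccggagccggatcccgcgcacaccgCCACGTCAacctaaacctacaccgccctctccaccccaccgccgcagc
In DNAJA1 the motif began at base 4 of the transcript, and in the others it began 131 (DNAJB6) and 125 (DNAJC10) bases before the start.

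The IFNγ treatment was visible in known IFNγ targets: CXCL10 was at 81.7 ± 3.97 FPKM with IFNγ and 0.017 ± 0.029 in control (SD, n = 3), and CD274, which encodes PD-L1, was at 21.7 ± 2.32 against 0.543 ± 0.105. Of the melanocyte-lineage and melanoma markers, DCT, CAPN3 and ABCB5 were under 0.4 FPKM in every sample. EDNRB had group means of 4.57 to 6.67 and CSPG4 of 27.7 to 48.5. CTNNB1, which was also looked at but is not particular to melanoma, had group means of 54.4 to 89.3. The number of reads is not known, and counting errors are left out for that reason. Steps in the lowest FPKM values placed the depth of the 12 samples between 87.2% and 150.1% of the control mean.

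The chaperonin subunits CCT7, CCT3 and CCT2 were the most highly expressed of these genes in control. The J protein DNAJA1 (191.9 to 193.3 FPKM) overlapped with the subunit CCT6A (191.1 to 193.4) and lay above the remaining subunits. In control, CCT7 was at 382 ± 2.80 FPKM (SD, n = 3) and CCT3 at 352 ± 6.99, followed by CCT2 at 232 ± 10.8, CCT6A at 192 ± 1.19 and CCT5 at 173 ± 7.62. CCT4 (130.2 to 141) and CCT8 (132 to 141) overlapped, while every other neighbour in this order of subunits was separated in all samples. CCT6B, a subunit gene known from testis, was at 0.143 ± 0.0701. FPKM is per length, so these levels can be set against each other. The values of CCT6A are uncertain to a small degree because the pseudogenes CCT6P1 (1.94 ± 0.0687) and CCT6P3 (0.522 ± 0.0808) are near copies with which it can share reads.

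Among the J proteins in control, DNAJA1, a type I cytosolic J protein, was highest at 193 ± 0.756 FPKM. It was followed by DNAJC8, a spliceosome-associated member, at 86.4 ± 0.418, by DNAJB1, the classical heat-inducible type II J protein, at 83.8 ± 1.69, and by DNAJB6, which suppresses protein aggregation, at 75.5 ± 1.01. These first 4 did not overlap with each other, whereas from DNAJC2 (15.0 ± 0.498) downwards most neighbours in the order overlapped. In the endoplasmic reticulum, DNAJB11 was at 45.7 ± 2.35, DNAJC3 at 11.1 ± 0.338, DNAJC10 at 8.99 ± 0.142, DNAJC1 at 8.50 ± 0.688 and DNAJB9 at 7.41 ± 0.590. BAG3, which links HSP70 to autophagy, led its family at 44.3 ± 0.777, ahead of BAG2 at 19.5 ± 0.840, BAG1 at 16.2 ± 0.525, BAG5 at 4.52 ± 0.152 and BAG4 at 3.18 ± 0.138. BAG6 was at 0.178 ± 0.0803. It lies in the MHC region of chromosome 6, for which some releases of hg19 hold alternative haplotypes. Whether the reference of the authors held them, and how reads that match several places were counted, is not given in the sources used here, so this low value may not stand for low expression, which was not tested.

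In all, 50 of the 58 members had a mean of at least 1 FPKM in some group, and 56 were above 0 in all 12 samples. The 8 under 1 FPKM in every group were BAG6, CCT6B, CCT6P3, DNAJA4, DNAJB13, DNAJB7, DNAJC27 and DNAJC28, and none of the 8 was called in any comparison. DNAJA4 and DNAJB13 were listed at 0 in all 3 samples with SB-3CT and IFNγ.

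**Figure D1:**
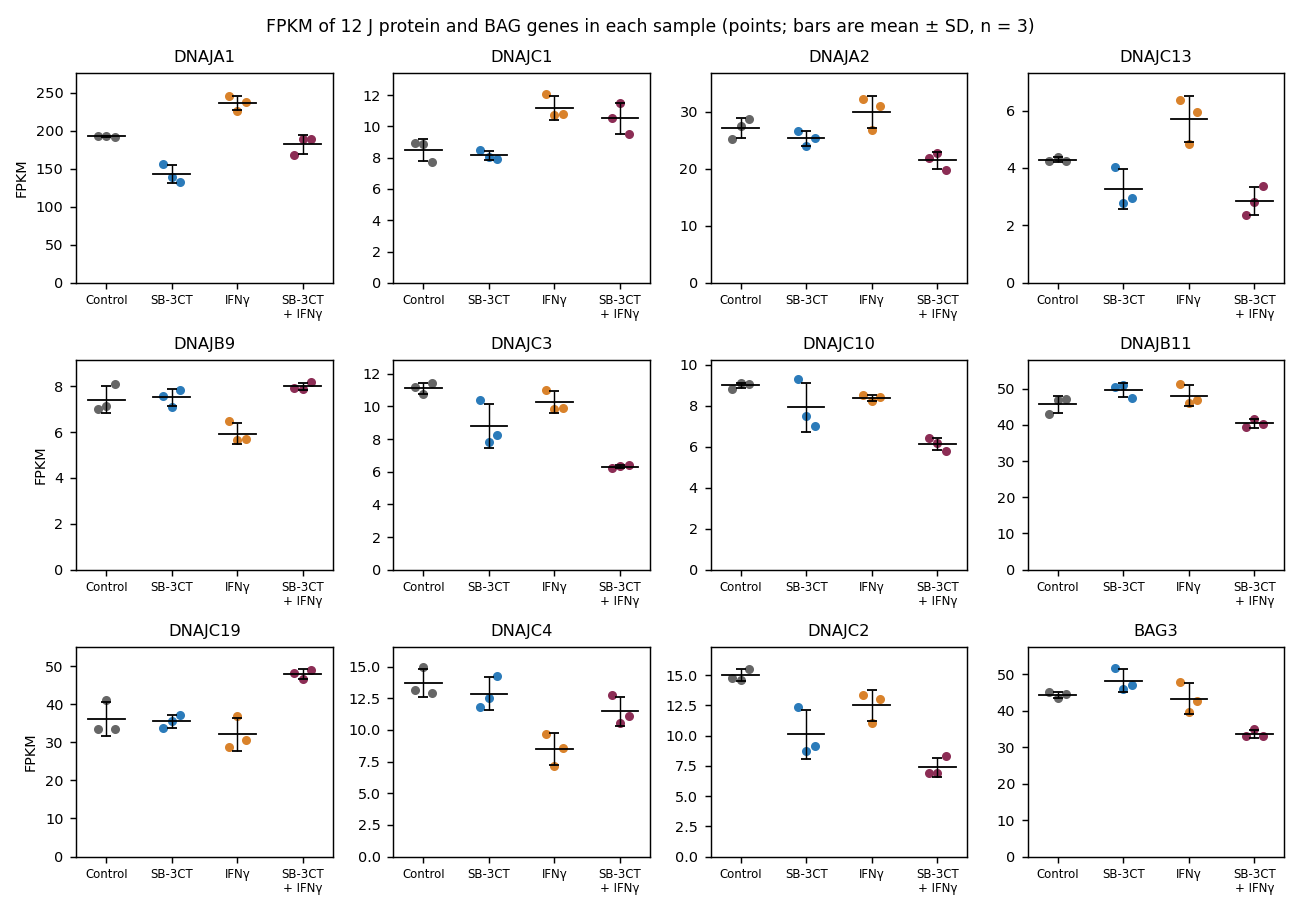
FPKM (vertical axes, from 0) of 12 J protein and BAG genes in the 3 samples of each of the 4 groups, with the mean and SD as bars. DNAJA1 is highest with IFNγ alone and lower with SB-3CT in both settings, DNAJC13, DNAJC3, DNAJC10, DNAJC2 and BAG3 are lowest with both agents, and DNAJC19 is highest there.

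The question of the first comparison was what SB-3CT changed in cells that also received IFNγ. With both agents, 22 members were lower and 4 were higher than with IFNγ alone (limma, adjusted p under 0.05), or 37.9% and 6.9% of 58. Over all 4918 genes, 31.5% were lower and 6.41% higher, so the members moved much as the table did. The summed FPKM per sample was 128299 to 129692 with both agents and 122601 to 124670 with IFNγ alone. The median log2 change of the 3177 genes of at least 1 FPKM was -0.20, and that of the 58 members -0.15 against -0.088 for all genes tested. After scaling by the median ratio, which removes this shift, 10 members were lower and 11 higher, against 17.3% and 15.0% of all genes. In 28 members every sample with both agents lay below every IFNγ sample and in 5 above, beside 39.6% and 9.35% of all genes. Changes on that scale are given beside the deposited ones below. In bulk RNA of a single line, fewer cells that express a gene and less of its RNA per cell cannot be told apart.

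Of the 10 J proteins of the endoplasmic reticulum, 6 were lower and 1 was higher when SB-3CT was added to IFNγ. DNAJC3 (chr13:96329393-96447242 in hg19, 12 exons), a luminal J protein also known as an inhibitor of the kinases PERK and PKR, was at 11.0, 9.84 and 9.92 FPKM with IFNγ and at 6.23, 6.33 and 6.38 with both. The groups were wide apart, with a log2 change of -0.62 (SE 0.069, adjusted p = 0.0021, limma), or -0.42 after median ratio scaling (adjusted p = 0.0030, limma). DNAJC10, a disulfide reductase of the same compartment, was at 8.50, 8.22 and 8.43 with IFNγ and at 6.41, 6.16 and 5.81 with both, again without overlap (log2 change -0.40, adjusted p = 0.0042, limma, and -0.20, adjusted p = 0.035, scaled). It was not called after quantile normalization (-0.11, adjusted p = 0.23, limma), and with a trend of each sample with transcript length removed the sign turned (0.19, adjusted p = 0.17, limma). DNAJB11, which binds unfolded clients of the HSP70 of this compartment, was at 46.0 to 51.3 FPKM with IFNγ and at 39.3 to 41.7 with both. Its log2 change of -0.24 (adjusted p = 0.015, limma) was -0.018 after scaling (adjusted p = 0.79) and so lay close to the shift of the whole table. The other 3 that were lower, DNAJC16, DNAJC18 and DNAJB12, were at log2 changes of -0.33, -0.32 and -0.26 and none of them was called after scaling.

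DNAJB9 (chr7:108210311-108215294 in hg19, 3 exons), a J protein that the unfolded protein response is known to induce and that aids the degradation of misfolded proteins, went the other way. It was at 6.46, 5.65 and 5.68 FPKM with IFNγ and at 7.90, 7.88 and 8.18 with both agents. Every sample with both was higher, with a log2 change of 0.38 (SE 0.074, adjusted p = 0.0072, limma) and 0.58 after scaling (adjusted p = 0.0025, limma). In control and with SB-3CT alone it was at 7.01 to 8.09 and 7.10 to 7.84, so that the IFNγ samples were the lowest of the 4 groups and the samples with both agents overlapped with control.

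The mitochondrial J protein DNAJC19 (chr3:180701485-180707562 in hg19, 6 exons), a part of the motor that draws proteins through the inner membrane, had the largest rise of any member that was called. It was at 28.8, 36.9 and 30.5 FPKM with IFNγ and at 48.1, 46.7 and 49.1 with both. Every sample with both lay above all samples of the other 3 groups, and the log2 change was 0.57 (SE 0.090, adjusted p = 0.0034, limma), or 0.80 after scaling (adjusted p = 0.0044). DNAJC15, its close relative at the same import motor, was at 6.49, 8.32 and 7.74 with IFNγ and at 8.51, 9.67 and 8.87 with both. It was not called on the deposited scale (log2 change 0.24, adjusted p = 0.094, limma) and was called after scaling (0.44, adjusted p = 0.025). Of the other 3 mitochondrial members, DNAJC11, which is bound to the organisation of the cristae, was lower (log2 change -0.28, adjusted p = 0.014, limma) but at -0.065 after scaling, and DNAJA3 and DNAJC30 were not called on the deposited scale (log2 changes -0.015 and -0.13).

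DNAJC4 and DNAJC12, a J protein that assists the aromatic amino acid hydroxylases, also rose. DNAJC4 was at 9.71, 7.17 and 8.60 FPKM with IFNγ and 12.8, 10.5 and 11.1 with both (log2 change 0.40, adjusted p = 0.030, limma), and DNAJC12 had means of 3.17 ± 0.341 and 4.26 ± 0.521 (log2 change 0.33, adjusted p = 0.044, limma). Both calls held on the median ratio and quantile scales but depended on single samples. That of DNAJC4 was lost in 5 of the 6 fits with 1 sample left out, with an adjusted p of up to 0.109, and that of DNAJC12 in 4 of 6, with up to 0.149 (limma). Those of DNAJC19 and DNAJB9 were kept in all 6.

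The largest falls were those of DNAJC13, DNAJC2 and, as given above, DNAJC3. DNAJC13 (chr3:132136346-132257876 in hg19, 56 exons), which works with HSP70 in endosomal sorting, was at 6.37, 4.82 and 5.96 FPKM with IFNγ and at 2.36, 2.83 and 3.36 with both. The lowest IFNγ sample lay above the highest sample with both, and the log2 change was -0.80 (SE 0.13, adjusted p = 0.0039, limma), or -0.63 after scaling (adjusted p = 0.0091), and mean FPKM fell by 50.1%. DNAJC2, a J protein that sits on the ribosome, was at 13.4, 11.1 and 13.0 with IFNγ and at 6.92, 6.94 and 8.28 with both (log2 change -0.69, adjusted p = 0.0028, limma, and -0.48, adjusted p = 0.0074, scaled). DNAJC21, which takes part in ribosome assembly, was at 4.52 to 5.40 FPKM with IFNγ and 3.21 to 3.47 with both (log2 change -0.47, adjusted p = 0.0059, limma). All 3 vesicle or endosome members were lower, with DNAJC6 (auxilin, which uncoats clathrin vesicles) at a log2 change of -0.39 and DNAJC5 (the cysteine string protein of secretory vesicles) at a log2 change of -0.27. DNAJC5 was at -0.045 after scaling and was no longer called. DNAJC13, DNAJC2 and DNAJC3 were the members that were lower on all 4 scales used, which were the deposited, the median ratio, the quantile and one from which a trend with transcript length had been removed sample by sample, and these calls were also kept in all 6 fits with 1 sample left out.

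Both expressed type I cytosolic J proteins were lower. DNAJA1 was at 246, 226 and 237 FPKM with IFNγ and at 168, 189 and 189.5 with both, without overlap (log2 change -0.38, SE 0.066, adjusted p = 0.0049, limma), but after scaling the change of -0.15 was not called (adjusted p = 0.13). DNAJA2 had means of 30.0 ± 2.80 and 21.5 ± 1.52 (log2 change -0.46, adjusted p = 0.0054, and -0.24, adjusted p = 0.026, scaled, limma). Of the 3 type I members, 2 were lower after quantile normalization, DNAJA2 among them, beside 14.5% of all genes. With the length trend removed 1 was lower, which was not DNAJA2, beside 8.97% of all genes. Of the 5 type II members, DNAJB6 alone was called on the deposited scale (log2 change -0.27, adjusted p = 0.017, limma), and it was at -0.049 after scaling. DNAJB1 and DNAJB4 were at log2 changes of -0.15 (95% interval -0.36 to 0.059) and -0.20 (-0.49 to 0.091), and neither was called.

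In the BAG family, BAG3, BAG4 and BAG5 were lower when SB-3CT was added to IFNγ. BAG4, an inhibitor of death receptor signalling, was at 3.65, 2.96 and 3.54 FPKM with IFNγ and 1.52, 2.07 and 2.09 with both (log2 change -0.60, adjusted p = 0.0063, limma), and BAG5, which carries several BAG domains, was at 4.46 to 5.56 with IFNγ and 2.93 to 3.40 with both (log2 change -0.49, adjusted p = 0.0076, limma). After scaling these were -0.45 and -0.31, and both were still called. After quantile normalization BAG4 was still called as lower and BAG5 was not. With the length trend removed neither was, and 0 BAG genes were lower and 2 higher (beside 8.97% and 9.17% of all genes). BAG3 was at 47.8, 39.5 and 42.5 with IFNγ and 32.9, 35.0 and 32.9 with both, which did not overlap (log2 change -0.35, adjusted p = 0.0096, limma), and was at -0.13 after scaling (adjusted p = 0.10). BAG2, an inhibitor of the ubiquitin ligase CHIP, and BAG6 were not called (log2 changes -0.18 and -0.049). BAG1 was at a log2 change of 0.12 (adjusted p = 0.30, limma) on the deposited scale and at 0.33 after scaling, where it was called as higher (adjusted p = 0.010).

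Of the 8 chaperonin subunits, 2 were lower and 0 were higher with SB-3CT under IFNγ, while 2 were higher and 0 lower after scaling, and 4 were lower and 0 higher after quantile normalization (beside 14.5% and 11.0% of all genes), so that no direction held for the group across these scales. CCT5 was at 159.7, 145 and 149 FPKM with IFNγ and 113, 124 and 117 with both (log2 change -0.36, adjusted p = 0.0041, limma, and -0.13, adjusted p = 0.093, scaled). CCT6A was at a log2 change of -0.37 (adjusted p = 0.011, limma, lost without IFNγ replicate 1 or 3, with an adjusted p of up to 0.0596) and at -0.14 after scaling. CCT4, CCT7, CCT8 and CCT3 were at log2 changes of -0.20, -0.10, -0.087 and -0.035, and CCT2 at 0.034, with none called on the deposited scale. CCT2 and CCT3 were the subunits called as higher after scaling, at 0.26 and 0.19. After quantile normalization CCT3 was called in the opposite direction, at -0.24 (adjusted p = 0.029, limma), and CCT2 was at -0.10. With the length trend removed no subunit was called.

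**Figure D2:**
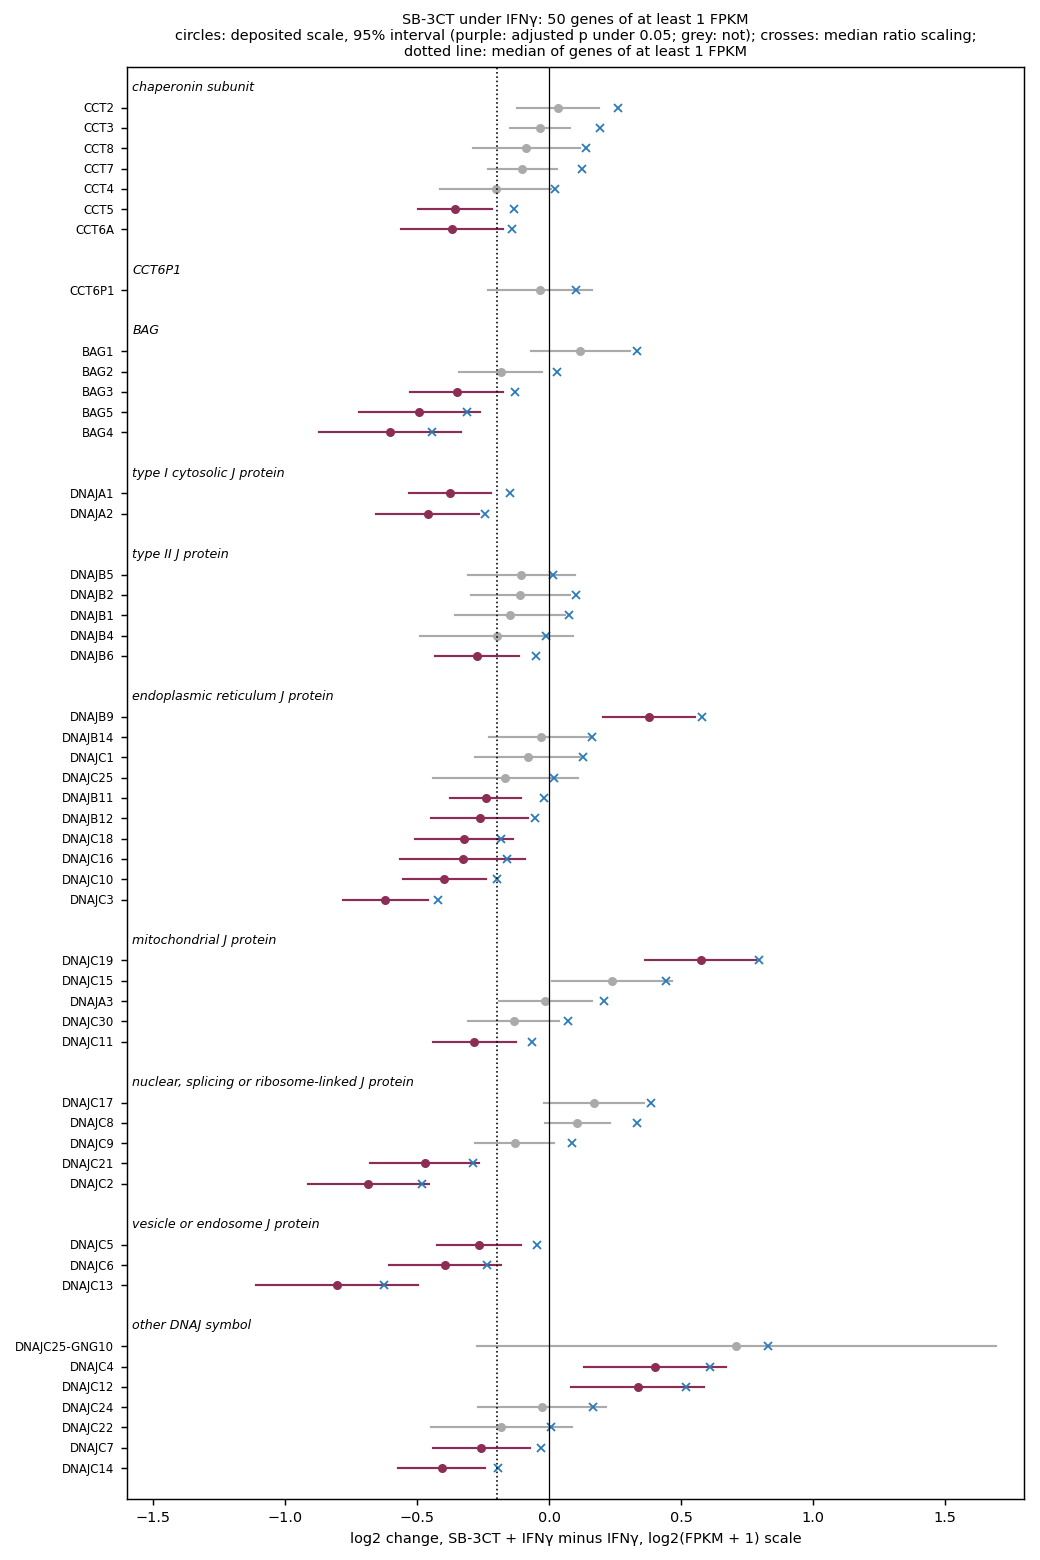
Log2 change of the 50 members of at least 1 FPKM between SB-3CT with IFNγ and IFNγ alone (horizontal axis, log2(FPKM + 1) scale), by role. Circles are the deposited scale with 95% intervals (purple where the adjusted p was under 0.05), crosses the median ratio scale, and the dotted line is the median of genes of at least 1 FPKM at -0.20. DNAJC13 is furthest to the left, DNAJC19 is the called gene furthest to the right, and most other circles lie around the dotted line.

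Change under IFNγ varied with transcript length among the members much as it did over the table. Across the 50 members of at least 1 FPKM, Spearman's rho between the length of the canonical transcript and the log2 change was -0.51, and across all 3170 such genes with a length it was -0.61, as a description over genes that share the same 6 libraries. DNAJC4, DNAJC12 and DNAJC19, which rose, have transcripts of 1130, 1221 and 1416 bases, while DNAJC13 and DNAJC3, which fell, have 7754 and 5590. DNAJC15, with 7459, and DNAJC2, with 2291, lay off this order. DNAJC10, which also fell and whose sign turned with the trend removed, has the longest transcript of the members, at 20144 bases. Once the trend with length was taken out of every sample, 5 members were lower and 8 higher of 58 (beside 8.97% and 9.17% of all genes), DNAJB9 and DNAJC19 among the higher, while DNAJC4 and DNAJC12 were not called. The lengths are those of the current annotation and may differ from the transcripts the authors counted.

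**Figure D3:**
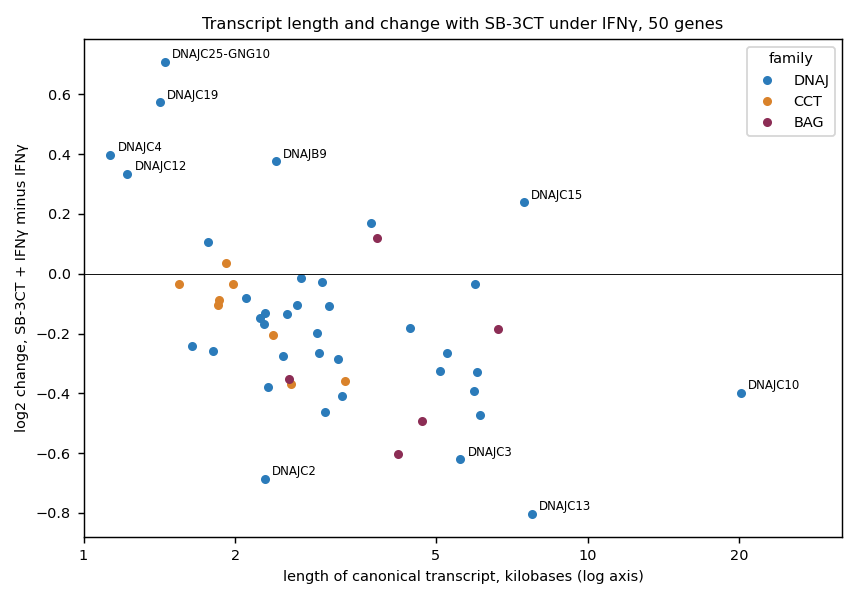
Length of the canonical transcript in kilobases (horizontal axis, log scale) against the log2 change between SB-3CT with IFNγ and IFNγ alone (vertical axis) for the 50 members of at least 1 FPKM, coloured by family. Short transcripts such as DNAJC4 and DNAJC19 lie high and long ones such as DNAJC13 and DNAJC3 lie low, with Spearman's rho of -0.51.

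Without IFNγ, SB-3CT changed fewer members. Against control, 6 were lower and 0 were higher (limma, adjusted p under 0.05), that is 10.3% and 0% of 58 beside 6.87% and 5.37% of all genes. At an unadjusted p under 0.05, 15 were lower and 1, DNAJA3, was higher, beside 17.7% and 12.4% of all genes. The 6 lower were DNAJC2, DNAJA1, DNAJC24, CCT8, CCT6A and BAG2, and all 6 were also called on the median ratio scale, where 6 members were lower and 1 higher beside 7.26% and 6.85% of all genes. In 19 members the samples lay apart with SB-3CT below and in 6 with SB-3CT above, beside 19.7% and 14.2% of all genes. The count rests on single samples: with 1 sample left out it was 0 in 5 of the 6 fits and 13 in the other, without SB-3CT replicate 1, which was the SB-3CT sample nearest to control for DNAJA1, DNAJC2 and CCT8. A per-gene test with equal variances on FPKM gave 0 lower members.

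DNAJA1, whose promoter window held a heat shock element, was at 193, 193 and 192 FPKM in control and at 156, 139 and 133 with SB-3CT. All SB-3CT samples lay well below the narrow control range, with a log2 change of -0.44 (SE 0.061, adjusted p = 0.0095, limma). DNAJC2 was at 14.8, 14.6 and 15.5 in control and at 12.4, 8.73 and 9.16 with SB-3CT (log2 change -0.54, adjusted p = 0.031, limma). DNAJC24, which takes part in making the diphthamide of elongation factor EEF2, was at 6.62 to 7.28 and 5.08 to 5.52 (log2 change -0.33, adjusted p = 0.029, limma). The calls of all 6 genes were kept without SB-3CT replicate 1 and lost in the other 5 fits with 1 sample left out, for DNAJA1 with an adjusted p of up to 0.0632 (limma).

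CCT8 was at 141, 132 and 135 FPKM in control and 122, 105 and 101 with SB-3CT (log2 change -0.32, adjusted p = 0.036, limma), and CCT6A had means of 192 ± 1.19 and 164 ± 11.7 (log2 change -0.23, adjusted p = 0.039, limma). CCT2 was at 244, 228 and 223 and 213, 185 and 171, without overlap but not called (log2 change -0.29, adjusted p = 0.062, limma). CCT3 and CCT7 were at log2 changes of 0.10 and 0.063, CCT4 and CCT5 at log2 changes of -0.11 and -0.12, and none of the 4 was called. BAG2 was at 18.6, 20.3 and 19.7 in control and 16.7, 16.2 and 17.0 with SB-3CT (log2 change -0.22, adjusted p = 0.034, limma). BAG1, BAG3, BAG4, BAG5 and BAG6 were not called, with log2 changes of 0.12, 0.12, -0.23, -0.086 and 0.041.

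None of the 10 J proteins of the endoplasmic reticulum was called with SB-3CT alone by limma. DNAJC3 was at 11.2, 10.8 and 11.4 FPKM in control and 10.4, 7.80 and 8.23 with SB-3CT, all lower, with a log2 change of -0.32 (adjusted p = 0.079, limma). DNAJC10, DNAJB11 and DNAJB9 were at log2 changes of -0.17, 0.12 and 0.019. The cytosolic DNAJA2, DNAJB1, DNAJB4 and DNAJB6 were at log2 changes of -0.10, -0.079, -0.20 and 0.022, and none was called.

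With IFNγ alone, no chaperonin subunit was called as higher. Against control, 4 of the 8 subunits were lower and 0 higher by limma (6 and 0 after median ratio scaling, where 10.7% of all genes were lower and 11.9% higher), and the samples of 7 of the 8 did not overlap between the groups, all 7 lower. Over all members, 14 were lower and 2 higher (limma, adjusted p under 0.05), or 24.1% and 3.4%, beside 11.0% and 8.46% of all 4918 genes, and in 22.0% of all genes the IFNγ samples lay below control without overlap. The 14 fell to 6, 8 and 5 without control replicate 1, 2 and 3 and to 9 without IFNγ replicate 3, and the 2 to 1 without any of these 4 samples or IFNγ replicate 1. The median change of the 8 subunits was -0.26 (-0.22 scaled), against -0.018 for all genes tested. This comparison and the one of SB-3CT with control share the 3 control samples, and it shares its IFNγ samples with the one of both agents.

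CCT2 (chr12:69979206-69995350 in hg19, 16 exons) was at 244, 228 and 223 FPKM in control and at 168, 172 and 169.6 with IFNγ. The IFNγ samples were tightly grouped, mean FPKM fell by 26.6%, and the test gave a log2 change of -0.44 (SE 0.046, adjusted p = 0.0018, limma). CCT3 was at 360.4, 349 and 348 in control and 278, 272 and 274 with IFNγ (log2 change -0.36, adjusted p = 0.0022, limma). CCT8 was at 141, 132 and 135 and 107, 98.8 and 103 (log2 change -0.40, adjusted p = 0.0028, limma). These 3 calls were kept in all 6 fits with 1 sample left out and on all 4 scales. CCT6A was called as lower (log2 change -0.28, adjusted p = 0.036, limma) but lost the call in 4 of 6 such fits, with an adjusted p of up to 0.111, and on the quantile scale. CCT4, CCT5 and CCT7 were at log2 changes of -0.24, -0.19 and -0.13 and missed the threshold (adjusted p = 0.055, 0.063 and 0.099, limma).

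Summed over the 8 subunits, FPKM was 1579.2 to 1633.4 in control, 1444.6 to 1601.5 with SB-3CT, 1275.9 to 1373.7 with IFNγ and 1167.9 to 1238.2 with both. On the deposited scale the 4 ranges thus overlapped only for control and SB-3CT, and the sum was lowest with both agents. These sums, and those of the DNAJ and BAG genes below, were not computed after median ratio scaling. The log2 factors of that scaling were -0.199 to -0.1753 with both agents and -0.0232 to 0.1095 with IFNγ alone. Which group is lowest may therefore differ on that scale. Of the subunits lower with SB-3CT under IFNγ, CCT6A was also called as lower with IFNγ alone, and CCT5 was not. The sum over the 42 DNAJ genes had means of 940.0 ± 4.1, 870.4 ± 30.7, 930.7 ± 48.8 and 818.4 ± 11.8, and that over the 6 BAG genes 87.9 ± 0.74, 89.4 ± 2.81, 78.8 ± 6.64 and 65.0 ± 1.94, in the same order of groups (SD, n = 3).

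**Figure D4:**
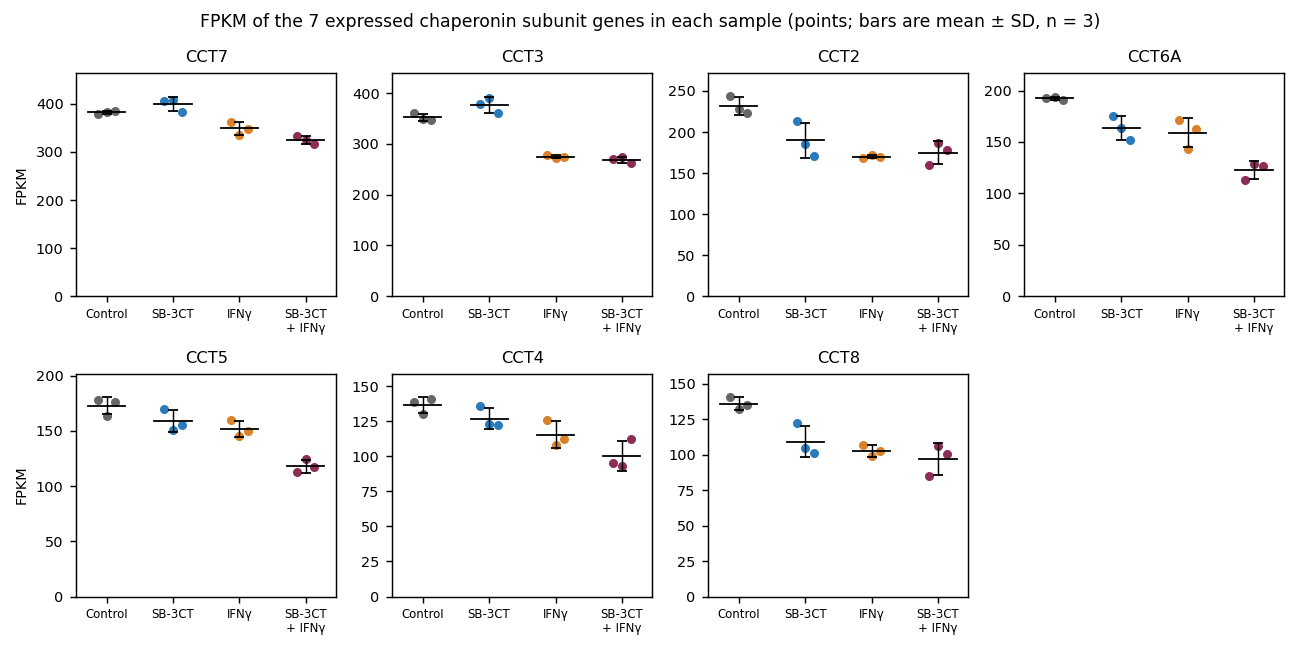
FPKM (vertical axes, from 0) of the 7 chaperonin subunit genes of at least 1 FPKM in the 3 samples of each group, with the mean and SD as bars. CCT2, CCT3 and CCT8 are lower in every IFNγ sample than in any control sample and stay there with both agents, whereas CCT5 and CCT6A are lower again with both.

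Against this direction, DNAJA1 (chr9:33025271-33039905 in hg19, 9 exons) and DNAJC1, a J protein of the endoplasmic reticulum membrane that binds ribosomes, rose with IFNγ. DNAJA1 was at 193, 193 and 192 FPKM in control and 246, 226 and 237 with IFNγ, 22.7% higher on average, with a log2 change of 0.29 (SE 0.044, adjusted p = 0.0066, limma). Its call was kept in all 6 fits with 1 sample left out. DNAJC1 was at 8.91, 8.89 and 7.71 in control and 12.1, 10.7 and 10.8 with IFNγ (log2 change 0.36, adjusted p = 0.024, limma), and lost its call in 5 of the 6 such fits, with an adjusted p of up to 0.0708. DNAJC13 was at 4.23, 4.39 and 4.24 in control and 6.37, 4.82 and 5.96 with IFNγ, all higher. It was not called on the deposited scale (log2 change 0.34, adjusted p = 0.061, limma) and was called after scaling (0.37, adjusted p = 0.018).

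The largest falls with IFNγ were in members of modest level. DNAJC25-GNG10, a readthrough of DNAJC25 into the G protein gene GNG10 that shares reads with both, was at 2.68, 1.28 and 1.91 FPKM in control and 0.457, 0.341 and 0.834 with IFNγ (log2 change -0.92, adjusted p = 0.023, limma), and lost its call in 4 of 6 fits with 1 sample left out, with an adjusted p of up to 0.0818. With both agents it ranged from 0.198 to 3.23. DNAJC12 was at 6.81, 4.87 and 5.72 and 2.83, 3.51 and 3.16 (log2 change -0.70, adjusted p = 0.012, limma). DNAJC4 was at 13.1, 14.9 and 12.9 and 9.71, 7.17 and 8.60 (log2 change -0.63, adjusted p = 0.012, limma). None of these pairs of groups overlapped. DNAJB4, a close relative of DNAJB1, was at 7.20 to 7.54 FPKM in control and 3.99 to 5.67 with IFNγ (log2 change -0.51, adjusted p = 0.025, limma), and its call was lost in 4 of 6 fits with 1 sample left out.

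In the BAG family, BAG1, which also binds BCL2, was at 16.6, 15.6 and 16.4 FPKM in control and 13.2, 11.5 and 10.8 with IFNγ (log2 change -0.42, adjusted p = 0.013, limma), and BAG2 was at 19.5 ± 0.840 and 15.1 ± 0.691 (log2 change -0.35, adjusted p = 0.0077, limma). BAG3, BAG4, BAG5 and BAG6 were not called, with log2 changes of -0.037, 0.066, 0.10 and 0.04. In the endoplasmic reticulum DNAJB9 was at a log2 change of -0.28 with an adjusted p of 0.059 (limma), and it was called as lower after scaling (-0.24, adjusted p = 0.042). DNAJC3, DNAJC10 and DNAJB11 were at log2 changes of -0.11, -0.09 and 0.07, and DNAJA2, DNAJB1 and DNAJB6 at log2 changes of 0.14, -0.22 and -0.056, with none called.

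Whether IFNγ altered the SB-3CT change was tested by an interaction term over all 12 samples, where a positive value means a change that was more positive with IFNγ. Of the 58 members, 5 were positive and 8 negative (limma, adjusted p under 0.05), beside 4.74% and 17.6% of all genes. The median of genes of at least 1 FPKM was -0.19 here. After median ratio scaling 9 were positive and 1, BAG3, was negative, against 7.69% and 5.75% of all genes, so that of the negative differences on the deposited scale the one of BAG3 was kept.

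Of the positive differences that were called, that of DNAJC12 was largest at 0.63 (SE 0.18, adjusted p = 0.030, limma), followed by DNAJC19 at 0.59 (SE 0.13, adjusted p = 0.013, limma). The readthrough DNAJC25-GNG10 had a larger one of 1.06 that was not called (adjusted p = 0.20, limma). DNAJC19 was at 33.4, 41.3 and 33.5 FPKM in control and 33.9, 35.6 and 37.1 with SB-3CT alone, which overlapped, while with IFNγ present SB-3CT samples were all higher. DNAJC4, DNAJC15 and DNAJB9 had differences of 0.48, 0.46 and 0.36. For DNAJC15 the 2 changes were of opposite sign, with -0.22 without and 0.24 with IFNγ, although neither was called by itself. All 5 were also called on the median ratio and quantile scales. With the length trend removed DNAJB9, DNAJC15 and DNAJC19 were still called, and DNAJC12 and DNAJC4 were not. The call of DNAJC19 was kept in all 12 fits with 1 sample left out, whereas those of DNAJC4, DNAJC12, DNAJC15 and DNAJB9 were lost in 9, 8, 6 and 4 of the 12.

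BAG3 had the largest negative difference that was called. Without IFNγ it was at 45.0, 43.4 and 44.5 FPKM in control and at 51.7, 45.8 and 46.9 with SB-3CT, all slightly higher though not called (log2 change 0.12, adjusted p = 0.19, limma). With IFNγ it was lower with SB-3CT, as given above, and the difference was -0.47 (SE 0.094, adjusted p = 0.0084, limma), or -0.27 after scaling (adjusted p = 0.019). This call was kept in all 12 fits with 1 sample left out. DNAJC13 was at a log2 change of -0.48 but was not called (adjusted p = 0.083, limma). For DNAJA1, which was called as lower with SB-3CT in both settings on the deposited scale, the difference was 0.058 with a 95% interval of -0.14 to 0.26 (adjusted p = 0.70, limma). After median ratio scaling DNAJA1 was called as lower without IFNγ but not with it, and the difference was not called there either. The difference for DNAJC2, lower in both settings, was -0.15 (-0.51 to 0.21), and for CCT2 it was 0.33 (adjusted p = 0.057, limma). Of the 8 chaperonin subunits 0 were called on the deposited scale. After median ratio scaling 2 were positive and 0 negative, beside 7.69% and 5.75% of all genes. After quantile normalization 0 were positive and 1 negative, beside 295 and 345 of all 4918 genes.

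**Figure D5:**
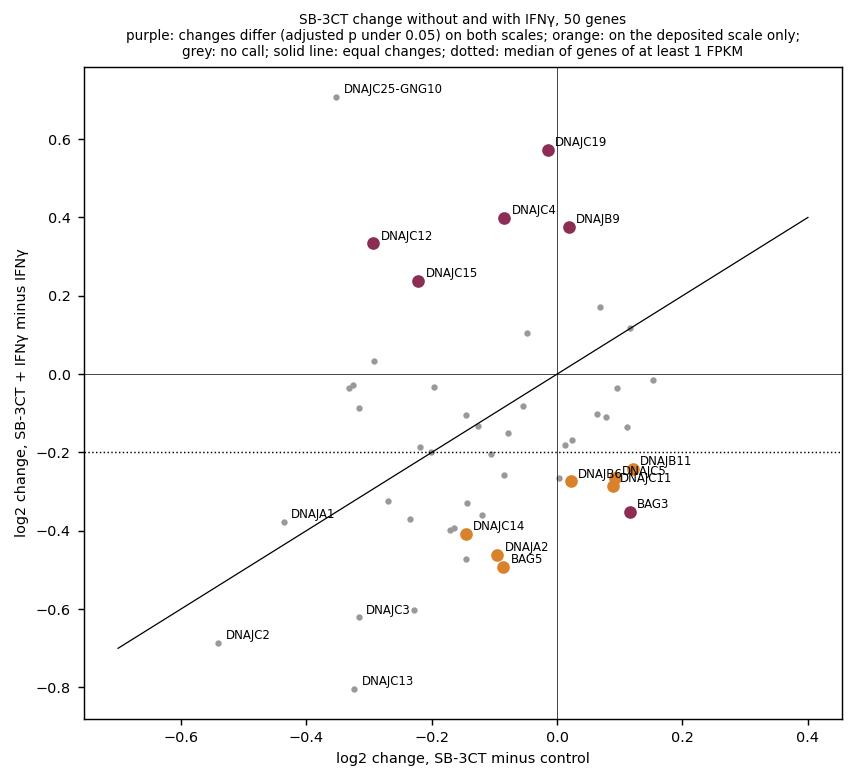
Log2 change with SB-3CT without IFNγ (horizontal axis) and with IFNγ (vertical axis) for the 50 members of at least 1 FPKM, with equal changes on the solid line and the median of genes of at least 1 FPKM under IFNγ as the dotted line. DNAJC19, DNAJC4, DNAJB9, DNAJC12, DNAJC15 and BAG3 (purple) differ between the settings on the deposited and the median ratio scale. DNAJA1 and DNAJC2 lie near the solid line on the deposited scale, which is the one plotted.

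Other folding genes of the table, from lists chosen with earlier results of these data known, moved as follows with SB-3CT under IFNγ. Over all genes, 31.5% were lower and 6.41% higher, or 17.3% and 15.0% after scaling. Of 12 folding genes of the endoplasmic reticulum, 7 were lower and 1 was higher (3 and 3 after scaling). CANX and CALR, the lectin chaperones calnexin and calreticulin, were at 131 ± 11.6 and 691 ± 45.0 FPKM with IFNγ and at 92.3 ± 2.12 and 535 ± 18.0 with both (log2 changes -0.50 and -0.37, adjusted p = 0.0027 and 0.0062, limma), and CALR was not called after scaling. Of 6 mitochondrial folding genes, 3 were higher and 2 lower (the same counts after scaling), and DNLZ, a partner that keeps the mitochondrial HSP70 soluble, rose from 66.5 ± 3.55 to 101 ± 5.22 (log2 change 0.60, adjusted p = 0.0021, limma, and 0.82, adjusted p = 0.0021, scaled). DNLZ was also called as higher with SB-3CT alone, from 62.4 ± 5.84 to 81.9 ± 8.76 FPKM (log2 change 0.38, adjusted p = 0.040, limma). Its interaction term was not called (0.21, adjusted p = 0.23, limma). DNAJC19 differed from it, with no call with SB-3CT alone (log2 change -0.015) and a called interaction term of 0.59. CLPX, the unfoldase of the mitochondrial protease, fell when SB-3CT was added to IFNγ (log2 change -0.52, adjusted p = 0.0024, limma). Of 10 HSP90 co-chaperones and heat-inducible genes, 1 was higher (CLU) and 1 lower (AHSA2), but 6 were higher and 0 lower after scaling. Of 4 CCT clients the actin genes ACTB and ACTG1 were lower (log2 changes -0.27 and -0.23) but at -0.045 and 0.0002 after scaling. Of the 2 chaperonin-like genes BBS10 was lower (log2 change -0.38) and not called after scaling.

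With SB-3CT alone, 6.87% of all genes were lower and 5.37% higher. Of the 10 HSP90 co-chaperones and heat-inducible genes 2 were higher and 1 lower, of the 12 genes of the endoplasmic reticulum 1 each way. Of the 6 mitochondrial ones 2 were higher. ERO1B, an oxidase of the endoplasmic reticulum, fell from 7.11 ± 0.389 to 4.39 ± 0.171 FPKM (log2 change -0.59, adjusted p = 0.0060, limma), and CHORDC1, an HSP90 partner, from 23.2 ± 1.58 to 17.5 ± 1.71 (log2 change -0.39, adjusted p = 0.028, limma). With IFNγ alone, 11.0% of all genes were lower and 8.46% higher, or 10.7% and 11.9% after scaling. Of the 10 HSP90 co-chaperones and heat-inducible genes, 5 were lower and 0 higher (the same counts after scaling). They were AHSA1, an activator of the HSP90 ATPase (log2 change -0.23), CACYBP (log2 change -0.24), CDC37L1 (log2 change -0.36), CRYAB, a small heat shock protein (log2 change -0.45), and DEDD2 (log2 change -0.32). In the endoplasmic reticulum list, 3 were higher with IFNγ (ERP44 at 0.53, ERO1B at 0.50 and CNPY3 at 0.25) and 2 lower (CLGN and CRELD2).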

How the data were processed

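RNA of A375 cells from 12 samples (4 groups of 3, 24 h of treatment) was sequenced with 150-base paired-end reads. Per the labels, HISAT2 2.0.5 and StringTie 1.3.3 were the tools with which the authors mapped reads to hg19 and obtained FPKM, and the annotation behind the FPKM is not given in the sources used here. The deposited values are on a log2 scale and fit log2(FPKM + 1), so the step of taking logarithms laid out beforehand was left out, and FPKM was computed back as 2 to the power of the value, minus 1. Summed FPKM was 121928 to 129692 per sample. Every column of sample values was used.

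limma 3.58.1 (R 4.3.3) was fitted for each pair of groups to the 6 samples concerned, unpaired, with eBayes and its mean-variance trend, and an interaction term over all 12 samples tested whether the SB-3CT change differed with IFNγ. P-values were adjusted by Benjamini-Hochberg over all 4918 genes, with no filter on low values. The fits were tested on simulated data with 200 changed genes. The members, role groups and lists of other folding genes were chosen with earlier results of these data known.

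The genes named are the 6 largest rises and 6 largest falls of each comparison among members called, without overlap and at 1 FPKM or more (pairs of groups), plus, always, the expressed CCT subunits, BAG1 to BAG6, DNAJA1, DNAJA2, DNAJB1, DNAJB4, DNAJB6, DNAJB9, DNAJB11, DNAJC3 and DNAJC10. A few others were named after their values were seen: DNAJC16, DNAJC18, DNAJB12, DNAJA3, DNAJC30, DNAJC14 and DNAJC6. Alternatives were a pseudocount of 0.1, a mean of at least 1 FPKM, median ratio scaling, quantile normalization, removal, sample by sample, of a trend with transcript length, all 4 groups in one fit, a replicate block, an equal-variance test of each gene by itself on FPKM, and each sample left out in turn. Replicate numbers did not pair the samples: same-numbered samples had correlations of deviations from -0.069 to 0.172. Gene positions and lengths came from GENCODE release 44 mapped to hg19, with all 58 members matched by symbol, and promoter sequences from RefSeq on GRCh38.p14. The search for one further promoter motif is not reported here.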

Additional observations from a re-analysis of the deposited data

Results flagged for a closer look

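The change with SB-3CT differed between cells with and without IFNγ in 13 members, by the interaction term itself (limma over all 12 samples, adjusted p under 0.05). The value is the log2 change with IFNγ minus that without. It was positive for DNAJC12 (0.6273), DNAJC19 (0.5879), DNAJC4 (0.483), DNAJC15 (0.4597) and DNAJB9 (0.3574). It was negative for BAG3 (-0.4673), BAG5 (-0.406), DNAJC11 (-0.3743), DNAJA2 (-0.3659), DNAJB11 (-0.3622), DNAJC5 (-0.3578), DNAJB6 (-0.2961) and DNAJC14, a J protein that aids the export of membrane receptors (-0.263). After median ratio scaling, which takes out the shift of -0.19 of the genes of at least 1 FPKM, the 5 positive values and that of BAG3 were still called and the other 7 negative values were not. With the trend with transcript length removed, DNAJC12 and DNAJC4 were not called either. The calls of DNAJC19, BAG3, DNAJB11 and DNAJC11 were kept in all 12 fits with 1 sample left out. Those of DNAJC5, DNAJB6, DNAJB9, DNAJC15, DNAJA2, DNAJC12, DNAJC4, BAG5 and DNAJC14 were lost in 2, 3, 4, 6, 7, 8, 9, 9 and 9 of the 12.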

How the results depend on the processing

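With SB-3CT under IFNγ (4 members higher, 22 lower), median ratio scaling gave 11 and 10, quantile normalization 8 higher, removal of the trend with transcript length 8 and 5, and the per-gene equal-variance test 2 and 13. With SB-3CT alone (0 higher, 6 lower), median ratio scaling gave 1 higher and the length trend 2, while the minimum of 1 FPKM gave 10 lower, the per-gene test 0 and the replicate block 3. Over all 4918 genes, 397 were higher here with the length trend removed, against 264 on the deposited scale. With IFNγ alone (2 higher, 14 lower), the length trend gave 25 lower and the per-gene test 1 and 8. Over all genes, 836 were lower here with the length trend removed, against 542 on the deposited scale. For the difference between the SB-3CT changes (5 positive, 8 negative), median ratio scaling gave 9 and 1, quantile normalization 4 negative, the length trend 8 and 2, and the minimum of 1 FPKM 13 negative. Over all genes, 345 were negative after quantile normalization, and 237 positive and 176 negative with the length trend removed. Counts over all genes for the minimum of 1 FPKM, the per-gene test and the replicate block are not given here. Why the counts changed was not tested.

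With 1 sample left out, the counts higher and lower ranged from 2 to 4 and from 15 to 22 for SB-3CT under IFNγ. They ranged from 0 to 0 and from 0 (in 5 of the 6 fits) to 13 (without SB-3CT replicate 1) for SB-3CT alone, and from 1 to 3 and from 5 (without control replicate 3) to 14 for IFNγ alone. For the difference they ranged from 1 (without SB-3CT with IFNγ replicate 3) to 8 (without its replicate 1) positive and from 3 (without control replicate 2) to 16 (without IFNγ replicate 2) negative. The replicate block, in samples that share only a number, gave 3 and 20, 2 and 12, and 4 and 8 in the other 3 comparisons.

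Of the values called on the deposited or the other scale, some changed sign, all in SB-3CT under IFNγ. Not called on the deposited scale and called as higher were CCT3 (0.1928) and DNAJA3 (0.2079) after median ratio scaling, DNAJB14 (0.2813) after quantile normalization, and BAG2 (0.2958), DNAJA3 (0.2051) and DNAJB14 (0.3831) with the length trend removed. Called as lower on the deposited scale and not called with the length trend removed were DNAJC10 (0.1868), DNAJC11 (0.0001), DNAJC16 (0.0381) and DNAJC5 (0.1754). Depth and counts per gene are unknown, 3 samples a group limit the precision, and the annotation behind the FPKM values may differ from the lengths used.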

Other observations

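BAG6, a chaperone for membrane proteins on their way to insertion that is known as broadly expressed, was listed at a mean of 0.192 FPKM over the 12 samples and at no more than 0.266 in any of them, the lowest of the 6 BAG genes. It lies at chr6:31606805-31620482 in hg19. Of the other 14 protein-coding genes of the table in the same stretch of chromosome 6, from ABCF1 to CUTA, 8 had a mean under 1 FPKM and 6 did not. The low ones lay on both sides of BAG6: ABCF1 (0.655), C6orf136 (0.031), CCHCR1 (0.04), DDX39B (0.071), C6orf47 (0.043), CSNK2B (0.269), AGER (0.012) and B3GALT4 (0.112). Between and beyond them lay DDR1 (3.74), ATF6B (3.79), AGPAT1 (1.93), BRD2 (1.28), DAXX (4.99) and CUTA (67.0 FPKM). The stretch was chosen after the value of BAG6 was seen, and the low values were not tested.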
